A study of Saccharomyces cerevisiae with 8 samples.

Results

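Transcript levels of 10 genes of the general stress response of the yeast Saccharomyces cerevisiae were followed in cells exposed to isopropanol (2-propanol). The genes were HSP12, CTT1, DDR2, SPI1, YGP1, XBP1, USV1, RTC3, MSC1 and TFS1. They were found by the systematic name of each gene in the scanner files, and all 10 had exactly 1 probe, printed as 2 spots, among the 6256 yeast probes of the array. All 10 were well above background on every array and entered the test of 5816 genes. BY4743, a diploid laboratory strain of S288C background that lacks LEU2 and URA3, was grown for 3 h at 30 °C in the rich medium YPD, in 120 ml cultures shaken at 130 rpm. The isopropanol group (4 arrays) received 40 g/l isopropanol in that medium and the control group (4 arrays) had none. The sample descriptions write the dose as 40 mg/l, whereas the source names, the characteristics and the design text give 40 g/l. The series design also names 20 g/l cultures, which are not analysed here.

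Msn2 and Msn4 are related zinc-finger activators that bind the stress response element (STRE), a short C-rich motif in the promoters of many stress genes. While glucose is plentiful, protein kinase A keeps them in the cytoplasm. Under heat, oxidants, osmotic stress, ethanol or nutrient shortage they enter the nucleus and induce genes for protective proteins, storage carbohydrates and antioxidant enzymes. The 10 genes are known outputs of this programme, and most of them also answer to other factors, among them the heat shock factor Hsf1.

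All values are log2 of the array's processed signal minus the log2 of that array's 75th percentile, so a value of 0 is a signal equal to the 75th percentile. Levels of different genes come from different probes and are not compared. Changes were tested with limma (Benjamini-Hochberg adjustment over 5816 genes), and a gene is called higher or lower at an adjusted p under 0.05. The 75th percentile itself was 1802 to 2449 intensity units on the isopropanol arrays and 1312 to 1678 on the control arrays. No label ties an array to a culture of its own, so the p-values measure array-to-array spread, part of which may be technical. The isopropanol arrays shared one slide and the control arrays another, and treatment and slide cannot be told apart. Control replicate 3 has a later scan than the other arrays of its slide.

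As a check of the strain and of cell state, neither LEU2 nor URA3 was well above background in both spots on any array. Of 5 genes of sporulating cells (IME1, NDT80, SPS4, DIT1, DIT2), 5 were called higher with isopropanol, where 48.1% of all genes were. Normexp is an alternative background correction that models spot signal as true signal plus noise, and here then adds an offset of 50 units. With it 1 of the 5 was called higher, where 18.2% of all genes were. The summed signal of these 5 genes was 0.624 to 0.675 of the 75th percentile on isopropanol arrays, against 0.276 to 0.287 on control arrays. Of 4 genes typical of haploid cells (STE2, STE3, MFA1, MFA2), 2 were called higher and none lower (none either way with normexp), with sums of 0.156 to 0.168 on isopropanol arrays and 0.0868 to 0.0943 on control arrays. MFA2 was not well above background on any array. The part of these markers in the results below was not tested, and in bulk RNA more cells of a state and more RNA per cell cannot be told apart.

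The stress genes did not move as a block. YGP1 was 8.0-fold higher with isopropanol, XBP1 3.48-fold and DDR2 3.09-fold, while TFS1, CTT1 and USV1 were higher by 1.64-fold, 1.39-fold and 1.28-fold. HSP12, often used as the reporter of this response, was lower, with control arrays 1.6-fold above isopropanol arrays. SPI1 and MSC1 did not pass the test. In all, 7 of the 10 were called higher and 1 lower, where 77.8% of all genes tested were called, 48.1% as higher and 29.7% as lower. The 3 that rose by at least 2-fold compare with 7.5% of all genes, and none of the 10 fell by that much, against 1.98% of all genes. In 7 of the 10, the isopropanol and control arrays did not overlap, as was the case for 73.3% of all genes. The median log2 change was 0.41 over the 10 genes and 0.11 over all genes. The 80% called in either direction is close to the background, and the genes differed in both the direction and the size of the change.

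**Figure D1:**
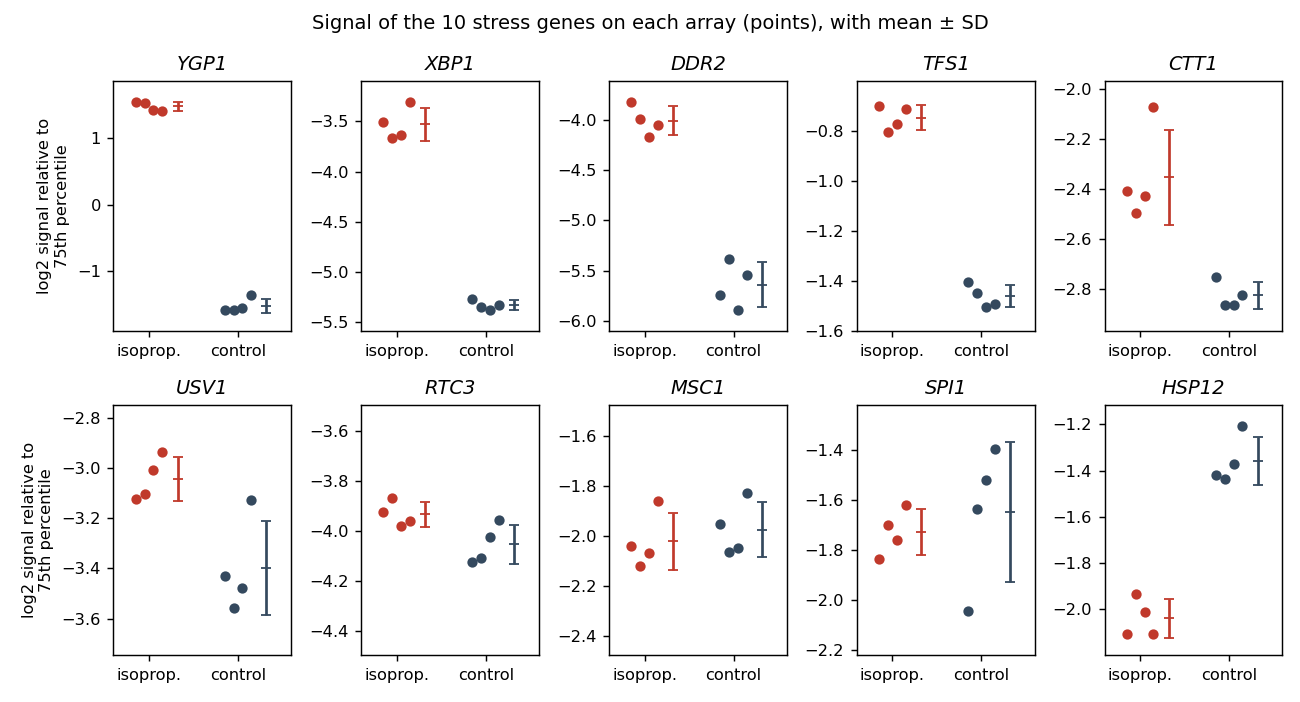
Log2 signal relative to the array's 75th percentile (vertical axis, own range per gene) for the 10 stress genes on the 4 isopropanol arrays (red, left) and the 4 control arrays (dark, right); points are arrays in replicate order and the bar beside them is mean ± SD. For YGP1, XBP1, DDR2, TFS1, CTT1 and, narrowly, USV1 all isopropanol arrays lie above all control arrays, for HSP12 all lie below, and for RTC3, MSC1 and SPI1 the groups overlap.

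The cell wall members went separate ways. YGP1 (YNL160W) encodes a secreted glycoprotein made when nutrients run short. It read 1.55, 1.53, 1.43 and 1.41 on the isopropanol arrays, against -1.59, -1.58, -1.55 and -1.36 on the control arrays. Every isopropanol array lay above the 75th percentile and every control array well below it. The log2 change was 3.00 (SE 0.06, adjusted p = 1.58e-10 in limma), the 18th largest increase of 5816. SPI1 (YER150W), for a wall protein held by a glycolipid anchor and known from weak acid resistance, read -1.84, -1.70, -1.76 and -1.62 on the isopropanol arrays, against -2.04, -1.64, -1.52 and -1.40 on the control arrays. The control arrays spanned the whole isopropanol range, with control replicate 1 lowest. The change of -0.08 (95% interval -0.35 to 0.19) did not pass (adjusted p = 0.549 in limma). Without control replicate 1 it was -0.21 and passed as lower (adjusted p = 0.0206), and without control replicate 4 it was 0.003 (adjusted p = 0.982).

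Both wall genes have a paralog that can be set beside them. SPS100 (YHR139C), the spore wall relative of YGP1, averaged -4.38 ± 0.09 on isopropanol arrays and -5.83 ± 0.10 on control arrays (SD, n = 4 each) and was 2.74-fold higher (adjusted p = 1.54e-08 in limma), but turned to a change of -0.22 with normexp background correction. YGP1 rose by 1.55 more than SPS100 on the log2 scale. SED1 (YDR077W), the relative of SPI1 and an abundant wall protein of resting cells, averaged 4.88 ± 0.09 on isopropanol arrays and 3.96 ± 0.09 on control arrays (SD, n = 4 each), and was 1.90-fold higher (adjusted p = 2.57e-07 in limma). The change of SPI1 was 1.01 below that of SED1, recorded as a member-minus-paralog difference of -1.01 (SE 0.18).

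A uniform shift of a whole array, whatever its size, cancels in these differences between paralogs. A change that depends on signal does not cancel where the probes of a pair differ in signal. Over all genes the median change ran from 0.54 in the lowest of 10 equal signal bins to -0.28 in the highest. The part of that trend in the paralog differences was not tested. The differences were tested over the 70 possible splits of the 8 arrays (two-sided exact permutation test), where the smallest p is 0.0286 and, adjusted over 6 pairs, 0.0343. Of the 6 pairs, 5 reached that value. SPI1 against SED1 lost it (adjusted exact p = 0.0686) when any 1 of the 4 isopropanol arrays was left out, with the difference between -1.05 and -0.94. Near-identical stretches shared by paralogs could share signal between probes, which was not tested.

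**Figure D2:**
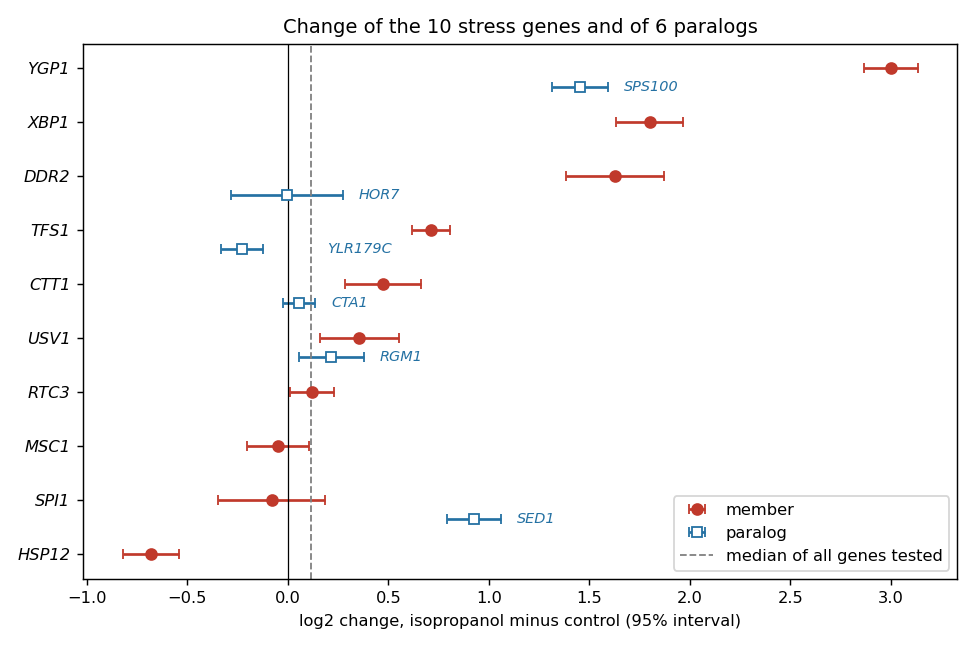
Log2 change, isopropanol minus control (horizontal axis), with its 95% interval, for the 10 stress genes (filled circles, ordered by change) and the paralog of 6 of them (open squares, below the member); the dashed line is the median over all genes tested, 0.11. SED1 lies to the right of its member SPI1, while SPS100, HOR7, CTA1 and YLR179C lie to the left of theirs.

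Of the transcription factors, XBP1 rose and USV1 rose less. XBP1 (YIL101C) encodes a stress-induced repressor whose targets include G1 cyclin genes. It read -3.51, -3.67, -3.64 and -3.31 on the isopropanol arrays, against -5.27, -5.35, -5.38 and -5.33 on the control arrays. The gap between the groups was many times the spread inside either of them. The log2 change was 1.80 (SE 0.07, adjusted p = 1.14e-08 in limma), but 0.34 with normexp, where it did not pass (adjusted p = 0.501). USV1 (YPL230W), for a zinc-finger factor linked to growth on non-fermentable carbon, read -3.12, -3.10, -3.01 and -2.94 on the isopropanol arrays, against -3.43, -3.56, -3.48 and -3.13 on the control arrays. Control replicate 4 all but reached the lowest isopropanol array. The change of 0.36 (SE 0.09, adjusted p = 0.00363 in limma) fell to 0.20 after median centring (adjusted p = 0.0577) and turned to -0.03 after quantile normalization and -0.15 with normexp. Its paralog RGM1 (YMR182C) changed by 0.22 (adjusted p = 0.0186 in limma), and the pair's difference of 0.14 (SE 0.17) did not pass (adjusted exact permutation p = 0.429), though with normexp it was 0.67 and did. RGM1 no longer passed without control replicate 4 (0.19, adjusted p = 0.0526) and turned to -0.35 after quantile normalization.

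HSP12 and DDR2, both for short stress proteins, moved in opposite directions on the reported scale. HSP12 (YFL014W), a gene of 109 codons, encodes a hydrophilic protein that associates with membranes under stress. It read -2.11, -1.93, -2.01 and -2.11 on the isopropanol arrays, against -1.42, -1.44, -1.37 and -1.20 on the control arrays. All isopropanol arrays lay below all control arrays. It fell by 0.68 on the log2 scale (SE 0.06, adjusted p = 3.32e-06 in limma), and ranked 5506th of 5816 genes. The direction was the same after median centring, quantile normalization and normexp (-0.84, -0.88 and -0.74, all passing). Scaled on spike-in RNAs it was 0.48 and did not pass.

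DDR2 (YOL052C-A), a multistress gene of 61 codons first found by its response to DNA damage, read -3.82, -3.99, -4.17 and -4.06 on the isopropanol arrays, against -5.74, -5.38, -5.89 and -5.54 on the control arrays. The control arrays were scattered more widely than those with isopropanol, and the groups stayed apart. The log2 change was 1.63 (SE 0.11, adjusted p = 3.55e-07 in limma), but 0.01 with normexp (adjusted p = 0.981). DDR2 itself had a processed signal of 27.9 to 39.1 units on control arrays, below the offset of 50 units that normexp adds. Its paralog HOR7 (YMR251W-A), of 59 codons and known from the response to high osmolarity, averaged 2.40 ± 0.26 on isopropanol arrays and 2.40 ± 0.17 on control arrays (SD, n = 4 each). Its change was -0.01 (95% interval -0.28 to 0.27), with isopropanol replicate 4 at 2.02, below all other arrays, and control replicate 4 at 2.66, above them. Without both of these arrays HOR7 was higher by 0.20 (adjusted p = 0.00505 in limma). DDR2 rose by 1.63 more than HOR7 (SE 0.18, adjusted exact permutation p = 0.0343), but by 0.03 more with normexp (adjusted exact p = 1), or by 0.50 with normexp without control replicate 2 (adjusted exact p = 0.171).

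CTT1 (YGR088W), for the cytosolic catalase T that breaks down hydrogen peroxide, rose modestly. It read -2.41, -2.50, -2.43 and -2.07 on the isopropanol arrays, against -2.75, -2.86, -2.86 and -2.82 on the control arrays. Isopropanol replicate 4 stood highest and the groups did not overlap. The log2 change was 0.47 (SE 0.08, adjusted p = 0.000444 in limma), or 0.38 without that array. After quantile normalization it was 0.19 (adjusted p = 0.0556) and with normexp 0.10 (adjusted p = 0.649), and passed under neither. CTA1 (YDR256C), for the peroxisomal catalase A, changed by 0.06 (adjusted p = 0.182 in limma), and CTT1 rose by 0.42 more than CTA1 (SE 0.11, adjusted exact permutation p = 0.0343).

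TFS1 (YLR178C) encodes an inhibitor of the vacuolar protease carboxypeptidase Y, which also binds Ira2, a negative regulator of Ras. It read -0.70, -0.80, -0.77 and -0.71 on the isopropanol arrays, against -1.40, -1.45, -1.50 and -1.49 on the control arrays. Neither group spread by more than a small part of the gap between them. The log2 change of 0.71 (SE 0.04, adjusted p = 1.44e-07 in limma) passed under every scaling tried. Its relative YLR179C averaged 2.39 ± 0.08 on isopropanol arrays and 2.62 ± 0.03 on control arrays (SD, n = 4 each). YLR179C fell by 0.23 (adjusted p = 0.00125 in limma), with a change in the other direction, of 0.93, on the spike-in scale. The changes of the pair lay 0.94 apart (SE 0.07, adjusted exact permutation p = 0.0343).

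RTC3 and MSC1 barely moved. RTC3 (YHR087W), for a protein related to the ribosome maturation factor SBDS, read -3.92, -3.87, -3.98 and -3.96 on the isopropanol arrays, against -4.12, -4.11, -4.03 and -3.96 on the control arrays. Control replicate 4 lay inside the isopropanol range. The change of 0.12 (SE 0.05, adjusted p = 0.0425 in limma) is that of the median gene. It no longer passed without isopropanol replicate 1 or 2 or control replicate 1, 2 or 3 (adjusted p = 0.0577 to 0.116), and was -0.39 and called lower after quantile normalization. MSC1 (YML128C), named for a mutant with altered meiotic recombination, read -2.04, -2.12, -2.07 and -1.86 on the isopropanol arrays, against -1.95, -2.07, -2.05 and -1.83 on the control arrays. The groups covered almost the same range. The change was -0.05 (95% interval -0.20 to 0.11, adjusted p = 0.543 in limma), and -0.21 after median centring and -0.25 after quantile normalization, where it passed.

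The spread among the 10 genes was itself larger than the array error. Of the 45 pairs of members, 35 differed in their change (two-sided exact permutation test of the per-array difference, adjusted p of at most 0.0367 over 45 pairs). YGP1 rose by 1.2 more than XBP1 (SE 0.12), and HSP12 stood 0.60 below its nearest neighbour SPI1 (SE 0.13), both at an adjusted exact p of 0.0367. Between these ends the order was less sharp. XBP1 and DDR2 differed by 0.17 (SE 0.15, adjusted exact p = 0.329), CTT1 and USV1 by 0.12 (SE 0.11, adjusted exact p = 0.438), and MSC1 and SPI1 by 0.03 (SE 0.15, adjusted exact p = 0.857). TFS1 against CTT1, USV1 against RTC3 and RTC3 against MSC1 did not pass either. DDR2 did rise by 0.92 more than TFS1. With normexp 0 of the 45 pairs passed after adjustment, with a smallest adjusted exact p of 0.0536. There 24 pairs had an unadjusted exact p under 0.05, where the smallest that the 70 splits allow is 0.0286. Whether any pair passes therefore depends on how many of the 45 reach that smallest value. The 35 pairs on the reported scale all stood at that smallest value too, so neither count measures the size of the differences.

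**Figure D3:**
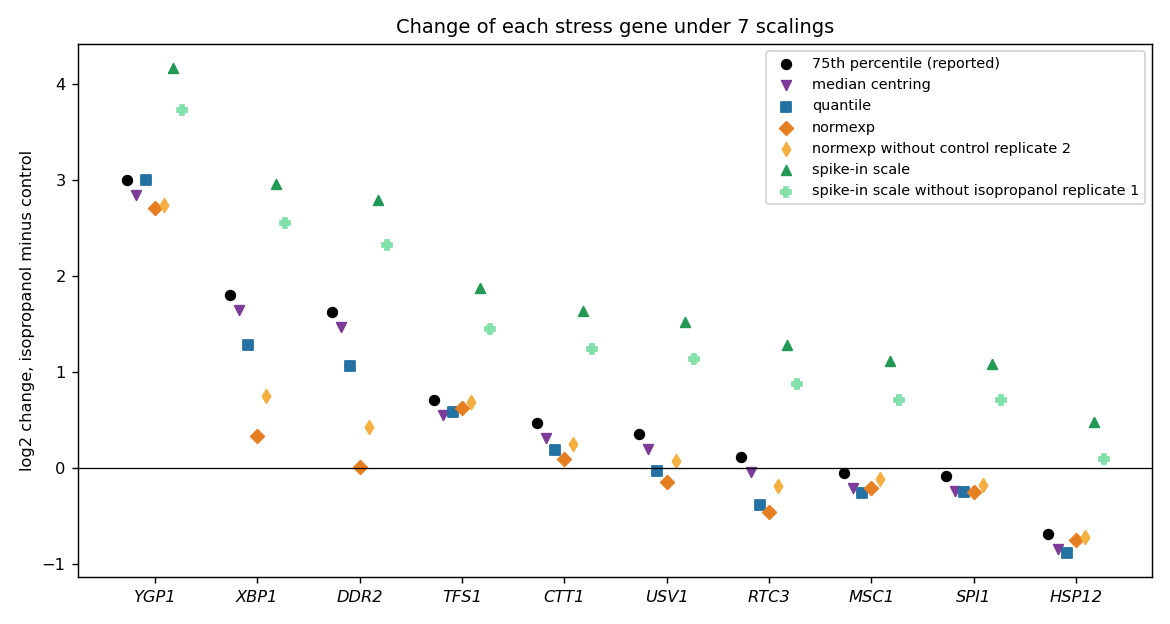
Log2 change, isopropanol minus control (vertical axis), of each stress gene under 7 scalings (markers; each point is 1 fit over the arrays named in the legend). The 75th percentile, median and spike-in scales shift all genes of an array together, so with all arrays the 10 genes keep their spacing by construction. YGP1 is highest under all 7, and with normexp XBP1 and DDR2 drop to 0.34 and 0.01, or 0.75 and 0.43 without control replicate 2.

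Median centring and the spike-in scale shift all genes of an array together, whereas quantile normalization and normexp move genes by unequal amounts. The median change of all genes was 0.11 on the reported scale, -0.05 after median centring, -0.02 after quantile normalization, -0.08 with normexp and 1.27 on the spike-in scale (0.86 there without isopropanol replicate 1, whose spike-ins stood 1.76 below the 75th percentile, against 0.24 below to 0.00 on the other isopropanol arrays). On the spike-in scale 9 of the 10 stress genes were called higher and none lower, where 78.1% of all genes were called, 77.8% as higher and 0.327% as lower. After quantile normalization 4 were higher and 3 lower, where 73.9% of all genes were called, 35.7% as higher and 38.3% as lower. After median centring 5 were higher and 2 lower, where 76.6% were called, 34.7% as higher and 42% as lower. Relative to the median gene, HSP12, SPI1 and MSC1 lay below it on all of these scales.

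Changes also followed signal, which bears on XBP1 and DDR2. Their processed signals were 182 to 211 and 108 to 170 units on isopropanol arrays, against 32.7 to 43.6 and 27.9 to 39.1 on control arrays, which put both in the lowest of 10 equal signal bins (deciles) of the genes tested. In that decile the median change was 0.54, and 9.79% of its genes rose more than XBP1 and 12.9% more than DDR2. Normexp added an offset of 50 units to each spot, above the processed signals of XBP1 and DDR2 on every control array. The part of that offset in the normexp changes was not tested. YGP1 stood apart from its own decile, where the median change was -0.04 and 1 of 582 genes rose more. TFS1 had 7.39% of its decile above it and CTT1 27.2%. HSP12 had 96.7% above it. USV1, RTC3, MSC1 and SPI1 had 56.2% to 75.9% of their deciles above them.

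With normexp, control replicate 2 stood apart for the dim genes. There XBP1 read -2.24, against -4.03, -3.67 and -3.93 on the other control arrays, and DDR2 read -2.22, against -4.12, -3.70 and -3.88. On all probes the 1st percentile after normexp was -2.30 on that array and -4.72 to -4.03 on the other controls. Without it, XBP1 and DDR2 passed with normexp at changes of 0.75 and 0.43 (limma adjusted p = 0.000339 and 0.00484), still well below the 1.80 and 1.63 of the processed signal, and RTC3 stayed at -0.18. Then 5 of the 10 genes were called higher and 1 lower, where 61.3% of all genes were called, 30.5% as higher and 30.9% as lower. With all arrays normexp called 2 higher and 1 lower, where 42.2% of all genes were called, 18.2% as higher and 24% as lower. The array was chosen after its values had been seen.

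**Figure D4:**
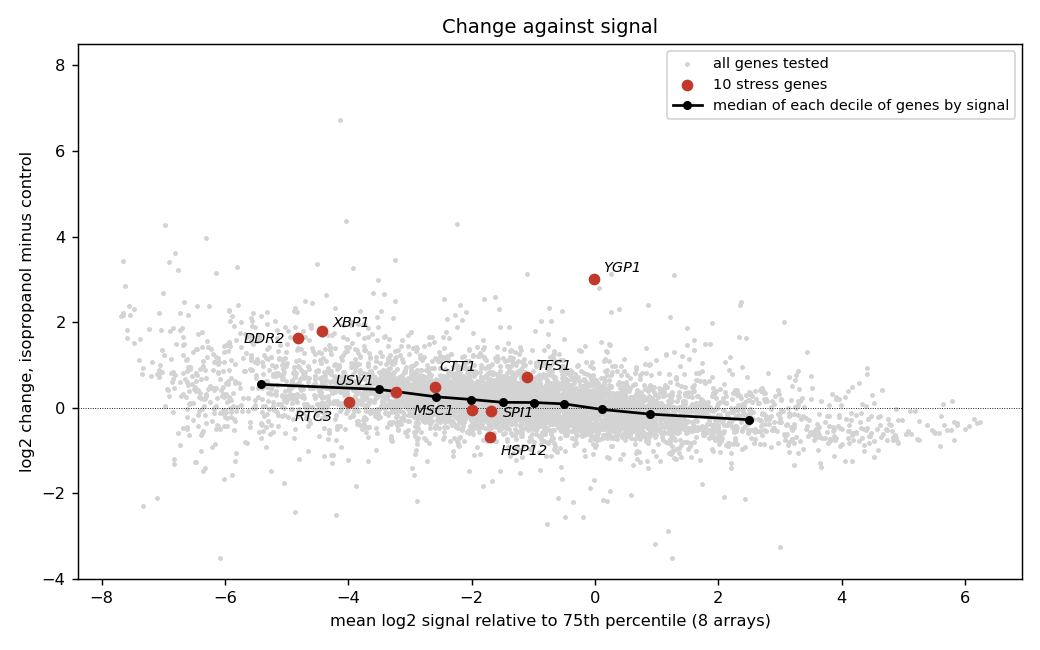
Log2 change, isopropanol minus control (vertical axis), against mean log2 signal over the 8 arrays relative to the 75th percentile (horizontal axis) for all 5816 genes (grey) and the 10 stress genes (red); the black line joins the medians of the deciles of genes by signal. The line falls from 0.54 at low signal to -0.28 at high signal, and YGP1 lies far above it.

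Of 50 other genes known to depend on Msn2 and Msn4, 43 were called higher and 3 lower, with a median change of 0.68 (0.65 with 2 genes at their bounds), against 7 higher and 1 lower of the 10, with a median of 0.41. Of these 50, 92.0% were called, beside 77.8% of all genes (48.1% higher and 29.7% lower). The list was written with earlier results of these data known. With normexp 23 of the 50 were higher, 2 lower and 25 not called, with a median of 0.31. That is 50% called, beside 42.2% of all genes (18.2% higher). Without control replicate 2 there 34 were higher and 5 lower, or 78% called, beside 61.3% of all genes (30.5% higher). The 43 include GPX1, SIP18 and GAC1, which passed the filter on dim probes only through the isopropanol arrays. Among the 47 genes measured on all arrays 40 were higher and 3 lower, or 91.5% called. Of all 5652 genes measured on all arrays 77.8% were called, 47.4% as higher and 30.4% as lower. The difference between the lists was not tested.

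All 7 chaperone genes of that list rose, also with normexp, led by SSE2 (3.14-fold), an Hsp110 nucleotide exchange factor, and HSP42 (2.70-fold), a small heat shock protein. All 12 genes of trehalose and glycogen metabolism were called higher, with changes of 0.17 to 2.40, but 6 of the 12 with normexp and 9, with 1 lower, after quantile normalization. Of all genes, 48.1% were called higher, or 18.2% with normexp and 35.7% after quantile normalization (38.3% lower there). GLC3, the glycogen branching enzyme, rose 1.82-fold, though by a log2 change of just 0.15 with normexp (adjusted p = 0.69 in limma). NTH1, a neutral trehalase, rose 1.65-fold. GAC1, at the top of that range, was measured above background on just 1 of the 4 control arrays and stood at -0.12 with normexp. The 11 genes measured on all arrays, which leave out GAC1, were all called higher, where 47.4% of all genes were under that filter.

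Carbon genes were less uniform, with 6 of 9 higher and 1 lower (3 and 1 with normexp). The 77.8% of them called is the same share as of all genes (77.8%). With normexp 44.4% were called, beside 42.2% of all genes. HXK1, for hexokinase 1, rose 2.53-fold and GND2, of the pentose phosphate pathway, 2.16-fold, the call of GND2 being lost with normexp (0.51, adjusted p = 0.0654 in limma). Of 6 genes against oxidants, 4 were higher and 2 lower (2 and 1 with normexp), so that 100% were called, or 50% with normexp. Among the 5 measured on all arrays, which leave out GPX1, 3 were higher and 2 lower. Under that filter 47.4% of all genes were higher and 30.4% lower. GRX1, for a glutaredoxin, rose 1.62-fold, and GTT1, for a glutathione transferase, fell by 0.66 on the log2 scale (but changed by 0.50 upwards on the spike-in scale). GPX1, not well above background on the control arrays, was at least 2.74-fold higher by its bound (limma adjusted p = 9.16e-06 for the fitted change, in a gene that only the isopropanol arrays carried through the filter), but stood at -0.63 with normexp. Of the remaining 16 genes 14 were called higher and none lower (87.5% called), where 48.1% of all genes were higher and 29.7% lower. Among the 15 measured on all arrays, which leave out SIP18, 13 were higher and none lower. With normexp 5 were higher and none lower (31.2% called, beside 42.2% of all genes). After quantile normalization 13 were higher and 2 lower (93.8%, beside 73.9%), and after median centring 14 and 2 (100%, beside 76.6%). MOH1 was 3.67-fold higher, but at -0.01 with normexp. AMS1, for the vacuolar mannosidase, rose 2.85-fold. SIP18, also kept only through the isopropanol arrays, was at least 1.26-fold higher by its bound, but at -0.97 with normexp.

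**Figure D5:**
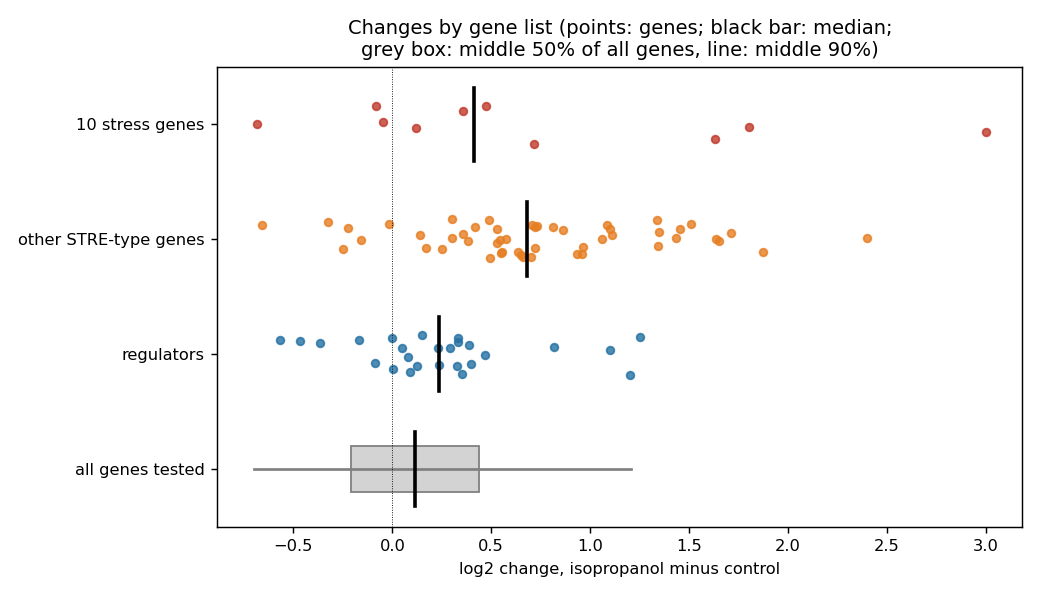
Log2 change, isopropanol minus control (horizontal axis), of the 10 stress genes, 50 other STRE-type genes and 26 regulators (points are genes, spread vertically for legibility; black bars are medians), above the distribution of all 5816 genes tested (box: middle 50%, line: middle 90%). Medians are 0.41, 0.68, 0.23 and 0.11 from top to bottom.

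Transcripts of the factors themselves were measured too. MSN4 was 2.30-fold higher, at -1.29 ± 0.12 on isopropanol arrays and -2.49 ± 0.07 on control arrays (SD, n = 4 each), and MSN2 was 1.32-fold higher (limma adjusted p = 6.45e-08 and 2.28e-05). HSF1, for the heat shock factor, rose 1.31-fold. GIS1, for a related activator of STRE-like sites, changed by 0.05 (adjusted p = 0.264 in limma), and by -0.38 after quantile normalization, where it passed as lower. These are transcript levels and carry no information on the location of the proteins in the cell.

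Of 26 regulators in all, 15 were called higher and 4 lower. The 73.1% called in either direction was below the 77.8% of all genes (48.1% higher and 29.7% lower). With normexp 8 were higher and 3 lower, or 42.3%, beside 42.2% of all genes (18.2% higher and 24% lower). Within the Ras and protein kinase A branch 7 of 12 were higher and 1 lower. The 66.7% called there in either direction was below the share of all genes, and with normexp it was 41.7%. PDE1, a phosphodiesterase that breaks down cyclic AMP, rose 2.14-fold, and RAS1 fell by 0.57 (but changed by 0.59 upwards on the spike-in scale). Of 7 kinases and phosphatase components 4 were higher and 2 lower (85.7% called, or 42.9% with normexp). RIM15, the kinase that acts upstream of Msn2 and Msn4 when nutrients run out, rose 2.38-fold, and YAK1, a kinase opposed to protein kinase A, 1.76-fold, though YAK1 turned to -0.38 with normexp. Of the 3 transport and anchor genes, MSN5, for a nuclear export receptor, rose by 0.13 (adjusted p = 0.0282 in limma, lost without isopropanol replicate 2 or 3 or control replicate 1, 2 or 4), and BMH1, for a 14-3-3 protein, fell by 0.17 (but changed by 0.22 upwards after quantile normalization, and by 0.99 on the spike-in scale).

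The median profile of the 10 genes over the 8 arrays was closest to those of PEP12, TAD1, UBX5, PAL2 and MCO32 among 5449 genes well above background on all arrays. Likeness was the mean absolute difference of log2 values, each taken from the control mean, and was 0.0294 to 0.0429 for these 5. Their changes were 0.37 to 0.43, close to the median of the 10 genes because they were chosen by likeness to it. On single arrays, control replicate 4 read highest of the controls for 6 of the 10 stress genes (28% of all genes), and isopropanol replicate 4 highest of its group for 5 of the 10 (41.5% of all genes). Without both arrays the counts were 7 higher and 1 lower, where 76.8% of all genes were called, 47.4% as higher and 29.4% as lower.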

How the data were processed

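Per the file headers, the authors extracted 1-colour Cyanine 3 arrays with Feature Extraction 9.5.3.1 from Agilent (version 9 in the submitters' processing notes) on a sacCer1 design. The deposited processed signal is an intensity that the scanner software had corrected for local background and spatial trend, without scaling arrays to each other. Flags for background and uniformity were other columns of the deposited files. The deposited series matrix holds log2 values, which followed the scanner values closely (rank correlation of 0.9972 or more, column medians -1.52 to -1.32 over arrays, difference of -0.002 to 0.019), in the same direction and uncentred by gene, with further steps not given in the sources used here.

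Here, log2 processed signal minus each array's 75th percentile was averaged over the 2 spots of a probe after 0 to 21 flagged spots per array were left out. No spot was saturated. Kept were probes that all arrays of 1 group or both measured well above background, and the brightest probe stood for a gene. The number of arrays limits the precision. limma 3.58.1 (R 4.3.3) tested all genes, and single differences went through exact permutation tests. Normexp (offset 50) used median signals, since no mean signal column was given, in place of the mean signal planned. On simulated data the fit was tested before use. A group without signal above background got a bound, namely the brighter group's mean against a floor, taken on each dim array as the lowest signal well above background or, if higher, the probe's own signal. Symbols came from RefSeq R64 (5765 of 6256 probes matched a locus tag). No coordinates are given, since the builds differ. No sequences were used here.

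The members and lists were chosen with earlier results of these data known. Named genes are the members, their paralogs, 4 factors, the 2 largest called changes in each list (measured on all arrays) and the 5 closest profiles. GPX1, SIP18, GAC1 and the marker genes were named beside them after their values were seen, as were the arrays left out together or with normexp.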

Additional observations from a re-analysis of the deposited data

Results flagged for a closer look

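In 2 of 82 groups of 4 arrays, over the 41 genes named, a single array lay far from the others, where chance gives about 1 in 20. YGP1 on control replicate 4 stood at -1.36, against -1.59 to -1.55 on the other control arrays, and without that array its change was still 3.05. GRX1 on control replicate 4 stood at -0.62, against -0.75 to -0.74 on the other control arrays.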

How the results depend on the processing

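With normexp 2456 genes, 3 stress genes, 25 of the other STRE-type genes, 11 regulators and 0 member pairs (smallest adjusted exact p = 0.0536) were called. The median change of the 10 turned to -0.065. That median was 0.16 with normexp without control replicate 2, 0.08 after quantile normalization, 0.26 after median centring, and 1.58 on the spike-in scale or 1.19 there without isopropanol replicate 1. After quantile normalization 4 stress genes were higher and 3 lower, and after median centring 5 and 2. Among all called genes the higher ones made up 61.8% as reported, 43.2% with normexp, 48.2% after quantile normalization, 45.2% after median centring and 99.6% or 98.4% on the spike-in scale. Signs turned as follows. With normexp USV1 stood at -0.15, RTC3 at -0.46, SPS100 at -0.22, RGM1 at -0.82, CTA1 at -0.25, MOH1 at -0.005, GIS1 at -0.40, YAK1 at -0.38, MCO32 at -0.34, GPX1 at -0.63, SIP18 at -0.97, GAC1 at -0.12, IME1 at -0.42, SPS4 at -0.37, MFA1 at -0.55 and STE2 at -0.80, and without control replicate 2 RTC3 at -0.18, RGM1 at -0.39, CTA1 at -0.069, GIS1 at -0.16, MCO32 at -0.075, GPX1 at -0.14, SIP18 at -0.47, MFA1 at -0.075, IME1 at -0.065 and STE2 at -0.39. After quantile normalization USV1 was -0.032, RTC3 -0.387, HOR7 0.14, RGM1 -0.35, CTA1 -0.30, GIS1 -0.38, BMH1 0.22, MCO32 -0.10 and STE2 -0.39, and after median centring RTC3 -0.037, CTA1 -0.10, GIS1 -0.11 and MSN5 -0.032. On the spike-in scale HSP12 was 0.48, SPI1 1.08, MSC1 1.11, HOR7 1.16, YLR179C 0.93, GTT1 0.50, RAS1 0.59 and BMH1 0.99, and there without isopropanol replicate 1 HSP12 0.092, SPI1 0.71, MSC1 0.71, HOR7 0.70, YLR179C 0.53, GTT1 0.084, RAS1 0.17 and BMH1 0.58. In the series matrix HOR7 was 0.001, and without both replicates 4 it was 0.20. Over single arrays left out, SPI1 ran from -0.21 to 0.003, MSC1 from -0.10 to 0.00 and HOR7 from -0.066 to 0.12. There 7 or 8 of the 10 stress genes were called, where 4357 to 4546 of all 5816 genes were. Of the pairs, 33 to 37 member pairs and 4 or 5 paralog pairs were called. The causes were not tested. Replicate numbers did not pair the arrays (correlations of deviations -0.16 to 0.04). With the replicate block 7 stress genes were called, 6 higher and 1 lower, where 75.6% of all genes were called, and RTC3 (adjusted p = 0.0912 in limma) was lost. The pair tests cannot pass with the block or without both replicates 4, and were not run. With trend and robust settings in limma's eBayes step RTC3 (adjusted p = 0.0854) and RGM1 (0.0636) were lost. The filter on dim probes and the probe summary changed no call among the named genes, although the stricter filter removed GPX1, SIP18 and GAC1.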
